A study of Mus musculus with 12 samples.

Results

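The genes of distal calcium reabsorption were followed in whole mouse kidney: the entry channels *Trpv5* and *Trpv6*, the buffering proteins *Calb1* and *S100g*, the extrusion genes *Slc8a1*, *Atp2b1* and *Atp2b4*, and the calcium-sensing receptor gene *Casr*. They were chosen by name, and all 8 were found among the 55401 gene identifiers of the deposited tables. RNA-Seq was performed on kidneys of 12 male C57BL6 mice aged 8 weeks. Vehicle, a solution of 15% 2-hydroxypropyl-beta-cyclodextrin, was given to 6 mice, and SK-124 was given to the other 6 at 40 mg/kg by intraperitoneal injection. SK-124 is a small molecule that inhibits the salt-inducible kinases SIK2 and SIK3, which are turned off downstream of parathyroid hormone (PTH). No time of collection is named for the RNA-Seq libraries, and the same experiment was read at 2.5 hours for RT-qPCR and at 3 hours for serum.

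Most filtered calcium is taken back in the proximal tubule and, between cells, in the thick ascending limb, whereas the distal convoluted tubule and connecting tubule carry out the regulated, transcellular step. There calcium enters through TRPV5 and TRPV6 at the apical membrane, is carried by the calbindins, and leaves at the basolateral side through the sodium-calcium exchanger and the plasma membrane calcium pumps. PTH and active vitamin D stimulate this route, and the calcium-sensing receptor, best known in the thick ascending limb, lowers calcium reabsorption when blood calcium is high.

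The promoters of the genes on which the results turn are given for reference: *Casr* and *Slc8a1*, the members that fell, the channels *Trpv5* and *Trpv6*, and *Cldn14*, a claudin gene controlled by the calcium-sensing receptor in the thick ascending limb. Each line holds the 250 bases before the annotated start, 5′ to 3′ on the strand of the gene (RefSeq, GRCm38.p6). Capitals mark TGACG, the core of a cyclic AMP response element, read on either strand.
Casr, chr16:36562135-36562384, minus strand: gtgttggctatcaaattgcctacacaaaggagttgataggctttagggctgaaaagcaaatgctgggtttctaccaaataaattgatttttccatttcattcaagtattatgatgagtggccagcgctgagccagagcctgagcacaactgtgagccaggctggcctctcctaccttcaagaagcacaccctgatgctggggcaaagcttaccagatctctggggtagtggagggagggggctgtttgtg
Slc8a1, chr17:81738388-81738637, minus strand: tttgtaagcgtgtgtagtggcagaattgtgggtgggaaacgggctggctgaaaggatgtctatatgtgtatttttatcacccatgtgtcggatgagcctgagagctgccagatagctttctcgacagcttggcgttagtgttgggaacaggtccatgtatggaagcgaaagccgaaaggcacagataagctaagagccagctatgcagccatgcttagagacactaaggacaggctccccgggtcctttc
Trpv5, chr6:41680724-41680973, minus strand: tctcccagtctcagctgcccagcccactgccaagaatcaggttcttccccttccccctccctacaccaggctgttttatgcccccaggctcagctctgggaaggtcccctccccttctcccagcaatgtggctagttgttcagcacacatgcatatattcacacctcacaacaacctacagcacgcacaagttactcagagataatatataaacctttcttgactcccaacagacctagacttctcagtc
Trpv6, chr6:41636406-41636655, minus strand: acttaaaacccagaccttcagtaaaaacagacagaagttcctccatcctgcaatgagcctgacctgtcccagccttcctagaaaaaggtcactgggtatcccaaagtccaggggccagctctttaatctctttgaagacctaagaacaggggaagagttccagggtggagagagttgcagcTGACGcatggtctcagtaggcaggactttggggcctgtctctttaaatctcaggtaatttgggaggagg
Cldn14, chr16:94008838-94009087, minus strand: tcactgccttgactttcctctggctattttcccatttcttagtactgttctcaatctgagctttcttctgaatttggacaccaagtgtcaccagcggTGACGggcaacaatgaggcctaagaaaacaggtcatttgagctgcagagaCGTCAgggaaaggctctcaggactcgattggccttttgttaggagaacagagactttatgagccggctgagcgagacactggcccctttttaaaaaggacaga

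A promoter entry was found for 7 of the 8 members, *Calb1* being the exception. Among these 7, TGACG was present in *Trpv6* alone, 69 bases before the start, and it was present in 17.8% of 32851 promoters of the same length. *Cldn14* has 3 promoter entries, of which the most upstream is shown. It held TGACG 2 times, 153 and 103 bases before the start, and the others held it 1 and 0 times. The full element TGACGTCA, which contains TGACG and was in 1.55% of promoters, was searched on both strands and had no match in the promoters shown or in those of the other members. The same held for a palindromic glucocorticoid response element, in 0.00913% of promoters, and for both forms searched of the vitamin D response element, each in 0.00609%.

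The expected counts of a mouse, its reads as assigned to genes, summed to between 19244227 and 19771802 per mouse. Levels are given below as CPM (counts scaled to library size by TMM) for comparisons between mice and as TPM (transcripts scaled to gene length) for comparisons between genes. A gene was called changed at a false discovery rate (FDR) under 0.05 in edgeR's quasi-likelihood test over 14159 genes. Kidney identity was clear from the proximal tubule markers, whose summed level was 25235 to 35019 CPM with vehicle and 27340 to 35679 CPM with SK-124. The libraries differed in how long and short genes were represented. A length index, the mean log2 level of the longest 25% of genes less that of the shortest 25%, was -0.295 in vehicle-treated mouse 3 and 0.0106 to 0.136 in the other vehicle-treated mice. It was -0.167 in SK-124-treated mouse 3 and -0.061 to 0.13 in the other SK-124-treated mice. The 10 genes with most counts took 44.4% to 46.8% of counts in SK-124-treated mice 1 to 3, against 38.6% to 43.2% in the others.

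*Casr* and, by less, *Slc8a1* were lower with SK-124. The other 6 genes, including both entry channels and both calbindins, did not pass the test. Thus 2 of 8 members were called, both lower, where 24.4% of all tested genes were called and 13.5% were called lower. Without covariates no member was called higher by edgeR, DESeq2 or limma, 1 of them (*Atp2b1*) was higher at an unadjusted p under 0.05 in edgeR, and 10.8% of all genes were called higher. The median log2 fold change of the 8 was 0.03, and that of all tested genes was -0.005. In none of the 8 did the groups separate without overlap, as they did in 13% of tested genes. Because whole kidney was used, fewer cells of a type and less RNA per cell cannot be told apart.

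**Figure D1:**
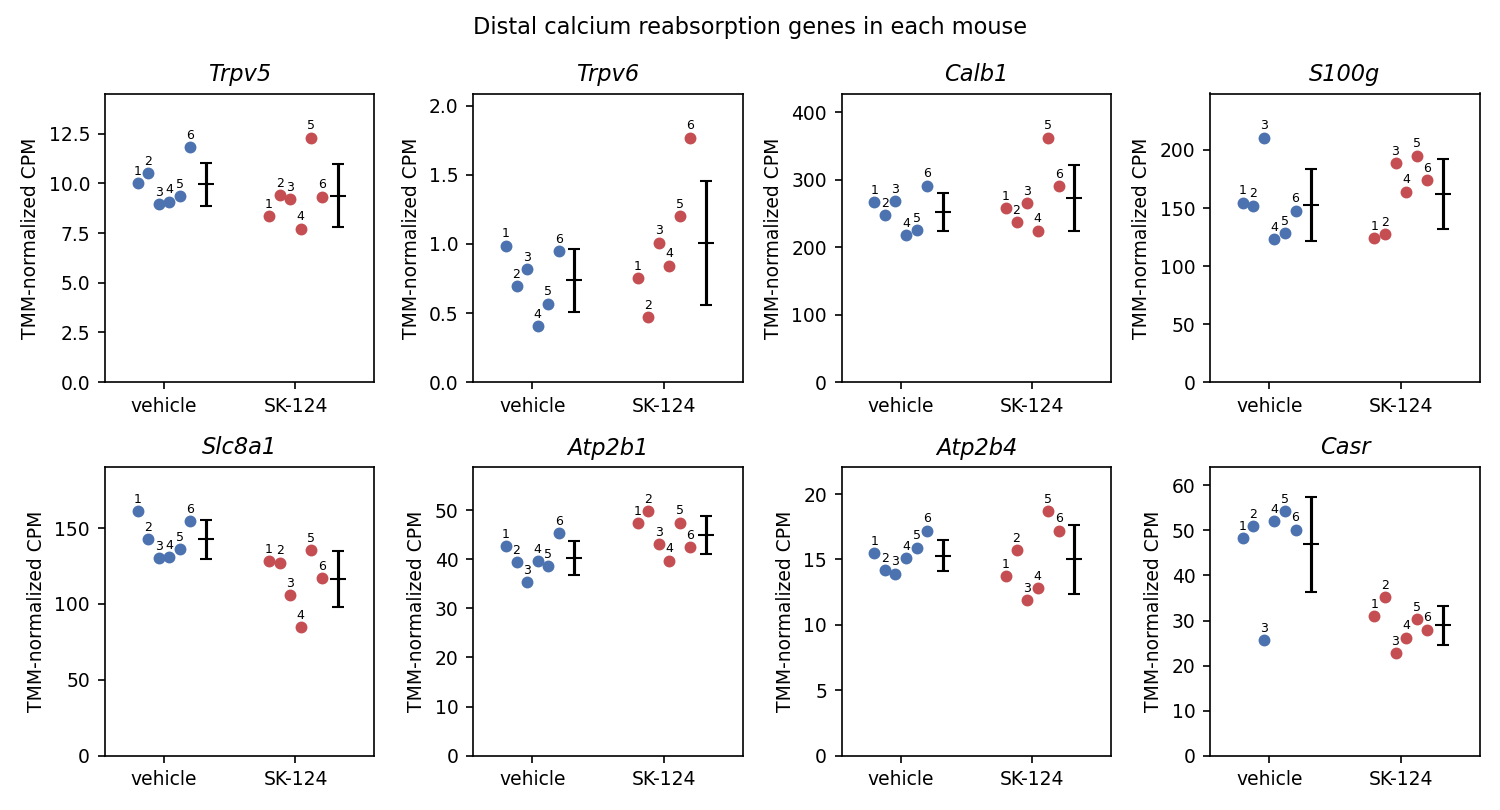
TMM-normalized CPM of each distal calcium gene (vertical axes, linear from 0) in the 6 vehicle-treated and 6 SK-124-treated mice. Points are mice with their numbers and bars are mean ± SD. SK-124-treated mice sit at 22.7 to 35.2 CPM for *Casr*, below 5 of the 6 vehicle-treated mice, and the groups overlap in each panel.

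**Figure D2:**
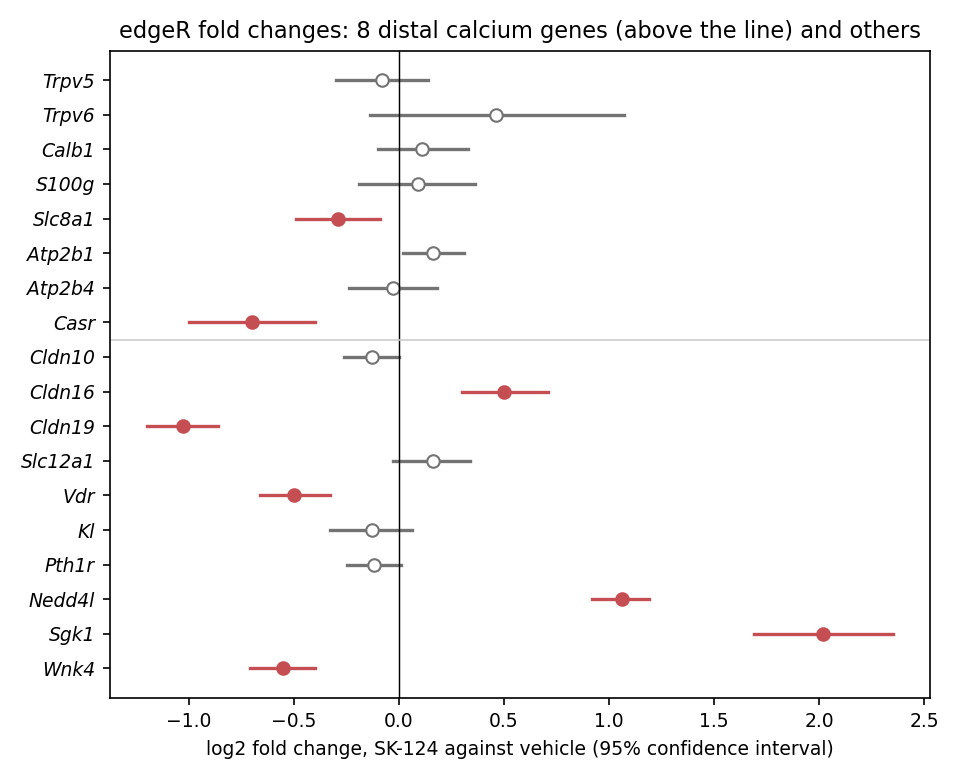
Log2 fold change, SK-124 against vehicle (horizontal axis), with 95% confidence intervals from edgeR for the 8 distal calcium genes (above the line) and for listed genes of the thick ascending limb and of channel regulation. Filled red points have an FDR under 0.05, among members *Slc8a1* at -0.29 and *Casr* at -0.70.

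*Casr* (ENSMUSG00000051980.13, chr16:36493696-36562141, minus strand, GRCm38) encodes the G protein-coupled receptor through which cells sense extracellular calcium. Its level with vehicle was 25.7 CPM in the lowest mouse, 50.6 at the median and 54.3 in the highest. With SK-124 it was 22.7, 29.1 and 35.2 CPM. All 6 SK-124-treated mice were below 5 of the 6 vehicle-treated mice, and only vehicle-treated mouse 3 reached into their range. The mean was 46.9 ± 10.6 CPM (SD, n = 6) with vehicle and 28.9 ± 4.32 CPM (SD, n = 6) with SK-124. The log2 fold change was -0.70 (standard error 0.14, 95% confidence interval -1.0 to -0.40, FDR = 0.00161, edgeR), or 0.615-fold. The exact permutation test on log2(CPM + 0.5) gave a two-sided p of 0.013, where 0.00216 is the smallest that 6 mice against 6 allow.

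The vehicle-treated mouse that overlapped had the lowest length index of all, and the lowest *Casr* value of the SK-124 group was also in the mouse with the lowest index of that group. *S100g* stood opposite, with its highest vehicle value in mouse 3. Without both mice numbered 3 the log2 fold change of *Casr* was -0.77 (standard error 0.07), and with the length index as a covariate it was -0.57 (standard error 0.05). The gene was called lower in all 26 alternative fits, with log2 fold changes of -0.82 to -0.57 and FDR values of 1.01e-06 to 0.0366 across edgeR, DESeq2 and limma. Against SK-124-treated mice 1 to 3 alone it was -0.66, and against mice 4 to 6 alone it was -0.73. With group means subtracted, Pearson's r of log2(CPM + 0.5) with the length index over the 12 mice was 0.96 for *Casr*. It was -0.89 for *S100g* and between -0.45 and 0.64 for the other members. Variation of *Casr* within the groups thus followed this property of the libraries closely. The part of the length index in the *Casr* difference was otherwise not tested.

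**Figure D3:**
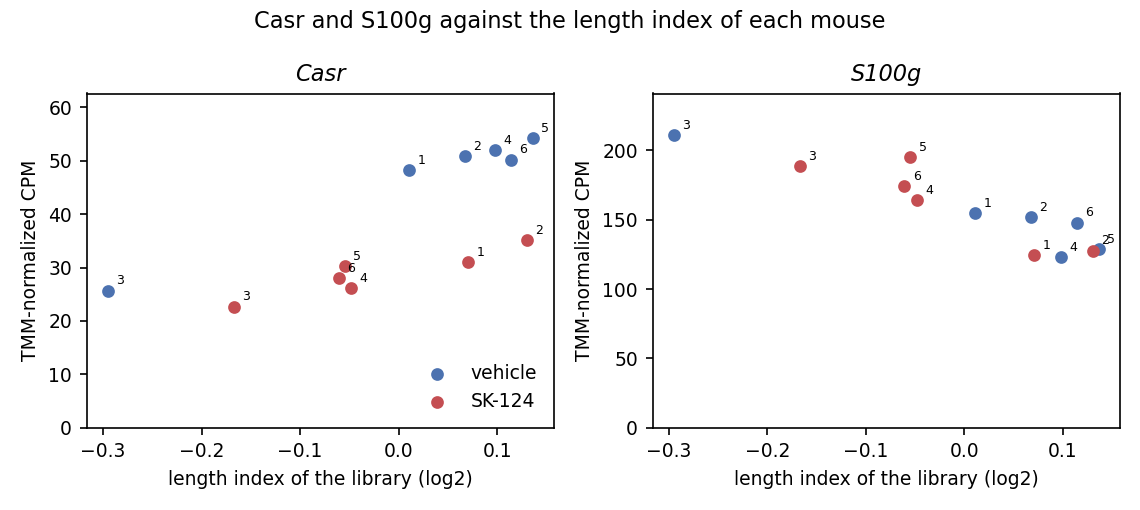
TMM-normalized CPM of *Casr* (left) and *S100g* (right) against the length index of each library (log2, horizontal axes). Each point is a numbered mouse, vehicle in blue and SK-124 in red. Along the index, *Casr* values of the SK-124 group run below those of the vehicle group, while *S100g* values of both groups are high where the index is low, with vehicle-treated mouse 3 at 25.7 CPM of *Casr* and 211 CPM of *S100g*.

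Calcium entry was next examined. *Trpv5* (ENSMUSG00000036899.10, chr6:41652173-41680769, minus strand, GRCm38) encodes the main apical calcium channel of the distal convoluted and connecting tubules. It was at 8.94, 9.68 and 11.8 CPM in the lowest, median and highest vehicle-treated mouse and at 7.72, 9.26 and 12.3 CPM with SK-124. The groups overlapped over most of their range, and the highest value of all belonged to SK-124-treated mouse 5. Its log2 fold change was -0.08 (FDR = 0.619, edgeR), and its 95% interval, as a percent change, was -18.8% to 9.93%. *Trpv6* (ENSMUSG00000029868.14), the related channel that is prominent in intestine, was barely covered, with 8 to 20 counts per vehicle-treated mouse and 8 to 35 with SK-124. It was at 0.403, 0.755 and 0.987 CPM with vehicle and at 0.468, 0.925 and 1.77 CPM with SK-124. The highest value again belonged to the SK-124 group, in mouse 6, and the groups overlapped. The log2 fold change of *Trpv6* was 0.46 (FDR = 0.271, edgeR), and its 95% interval of -0.14 to 1.07 was the widest of the 8 members. It was 0.02 with SK-124-treated mice 1 to 3 alone and 0.79 (FDR = 0.0934) with mice 4 to 6 alone, among FDR values of 0.0934 to 0.981 over its 25 alternatives.

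The calbindins buffer calcium on its way through the cell. *Calb1* (ENSMUSG00000028222.2, chr4:15881264-15908064, plus strand, GRCm38) was at 218, 257 and 291 CPM in the lowest, median and highest vehicle-treated mouse and at 224, 262 and 363 CPM with SK-124. *S100g* (ENSMUSG00000040808.4, chrX:162961992-162964599, minus strand, GRCm38), whose product is the small intestinal and renal calbindin, was at 123, 149.8 and 211 CPM with vehicle and at 124, 169 and 195 CPM with SK-124. Neither gene separated the groups. The 95% intervals of the percent change were -6.92% to 25.5% for *Calb1* (FDR = 0.473, edgeR) and -12.1% to 28.5% for *S100g* (FDR = 0.677, edgeR). With the length index as a covariate the log2 fold change of *S100g* was 0.01 (standard error 0.07, against 0.13 without it). *Ctps2* overlaps *S100g* on the opposite strand, and whether the counting used strand is not given in the sources used here.

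At the basolateral side, *Slc8a1* (ENSMUSG00000054640.15, chr17:81373105-81738377, minus strand, GRCm38) encodes the sodium-calcium exchanger. It was at 130.1, 139 and 161 CPM in the lowest, median and highest vehicle-treated mouse and at 84.7, 122 and 135 CPM with SK-124. Of the SK-124-treated mice, 5 of 6 were below every vehicle-treated mouse, and mouse 5 lay inside the vehicle range. The mean fell from 142.5 ± 12.9 CPM (SD, n = 6) to 116 ± 18.6 CPM (SD, n = 6), or by 0.29 on the log2 scale (SE 0.09, FDR = 0.0314, edgeR). The exact permutation test gave p = 0.0108, two-sided. This call was near the threshold: leaving out vehicle-treated mouse 1, 2 or 6 or SK-124-treated mouse 3 or 6 raised the FDR to between 0.0522 and 0.0768, with log2 fold changes of -0.29 to -0.26 in edgeR. The gene overlaps an antisense transcript and *Gm11096* on the other strand.

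The calcium pumps did not follow the exchanger. *Atp2b1* (ENSMUSG00000019943.10, chr10:98914406-99026143, plus strand, GRCm38), the widely expressed plasma membrane pump, was at 35.3, 39.5 and 45.3 CPM with vehicle and at 39.7, 45.1 and 49.8 CPM with SK-124. All 6 SK-124-treated mice were above the vehicle median, and 3 were above every vehicle-treated mouse. On the log2 scale the difference was 0.16 (95% interval 0.02 to 0.31, FDR = 0.103, edgeR). With the length index as a covariate it was 0.19 and passed the test (FDR = 0.0198), in a fit in which 29.3% of all genes were called, whereas on TPM with limma it was -0.01, and FDR values over 26 alternatives ran from 0.0198 to 0.966. *Atp2b4* (ENSMUSG00000026463.17, chr1:133699457-133801041, minus strand, GRCm38), another pump of the same family, was at 13.9, 15.3 and 17.2 CPM with vehicle and at 11.9, 14.7 and 18.7 CPM with SK-124. Its log2 fold change was -0.03 (FDR = 0.878, edgeR), with a 95% interval of the percent change of -15.1% to 13.5%.

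Per gene length the 8 members spanned a wide range. In vehicle-treated mice the TPM medians were 509 for *S100g*, 96.8 for *Calb1*, 10.9 for *Casr*, 7.76 for *Slc8a1*, 6.56 for *Atp2b1*, 3.03 for *Trpv5*, 1.48 for *Atp2b4* and 0.24 for *Trpv6*. Ranges over the mice overlapped between *Casr* and *Slc8a1* and between *Slc8a1* and *Atp2b1*, while the other neighbours did not overlap. Within single mice, *Slc8a1* was above *Atp2b1* in 5 of 6 vehicle-treated mice and in 1 of 6 SK-124-treated mice. The level of *Calb1* exceeded that of *Trpv5* by 30.2 to 34.8 times in vehicle-treated mice and by 31.2 to 44.9 times with SK-124. *Trpv5* exceeded *Trpv6* in all 12 mice, by 4.7 to 20.1 times. With SK-124 the medians in the middle lay close, at 5.86 TPM for *Atp2b1*, 5.83 for *Casr* and 5.52 for *Slc8a1*, with overlapping ranges. *Casr* was above *Slc8a1* in 5 of 6 vehicle-treated mice and in 2 of 6 SK-124-treated mice. It was above *Atp2b1* in 6 of 6 and 2 of 6.

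**Figure D4:**
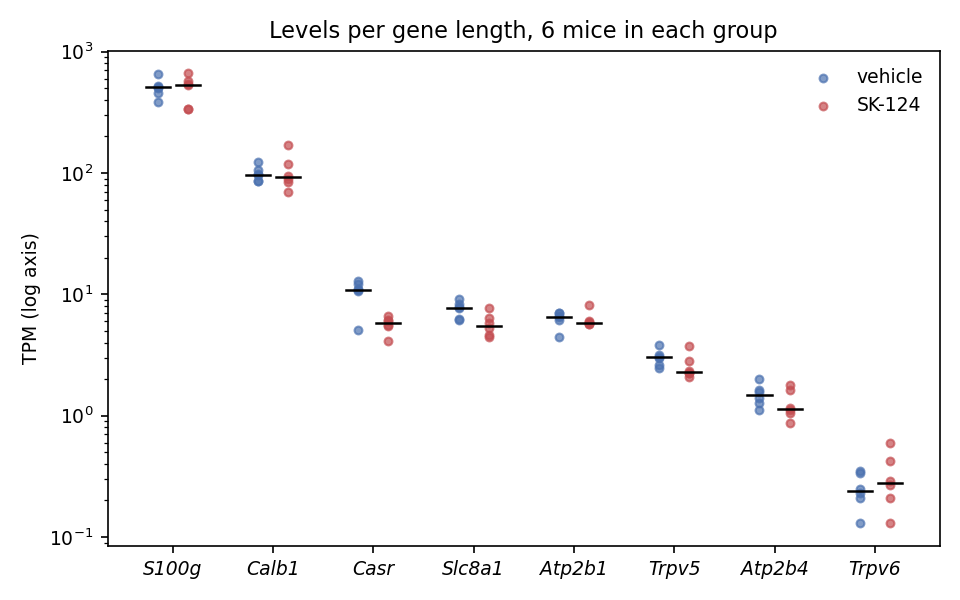
TPM of the 8 genes (log axis) in each vehicle-treated (blue) and SK-124-treated (red) mouse, ordered by the vehicle median, with black lines at the medians. *S100g* and *Calb1* stand above the rest, at 509 and 96.8 TPM with vehicle, and *Trpv6* is lowest at 0.24 TPM.

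The members varied together among mice of the same group to different degrees. After the group means were subtracted from log2(CPM + 0.5), Pearson's r over the 12 mice was 0.82 for *Trpv5* with *Calb1*, 0.83 for *Slc8a1* with *Atp2b1* and 0.71 for *Trpv6* with *Calb1*, and it was -0.79 for *S100g* with *Casr*. These values share libraries, scaling and the length differences described above, and they are given as a description. By the same measure the 5 genes most like *Trpv5* were *Agtrap* (r of 0.93), *Slc39a5* (0.91), *Mpp1* (0.90), *Nab1* (0.89) and *Igfals* (0.88). Those most like *Calb1* were *Slc5a10* (0.91), *Clu* (0.90), *Hadha* (0.90), *Ccdc160* (0.90) and *Nmt2* (0.89). Of the 5, Spearman's rho returned 1 for *Trpv5* and 2 for *Calb1*.

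Proteins that act on the channels were examined next. Among 20 listed partners and regulators of TRPV5 and TRPV6, all tested, 3 rose and 3 fell, with a median log2 fold change of 0.01 and against the 24.4% called among all genes. *Sgk1*, a kinase that promotes distal sodium and calcium transport, was at 14.7 to 31.3 CPM with vehicle and 81.2 to 115.6 CPM with SK-124 (log2 fold change 2.02, FDR = 4.86e-08, edgeR). *Nedd4l*, a ubiquitin ligase that removes channels from the membrane, was at 62.5 to 82.4 and 138.9 to 162 CPM (1.06, FDR = 2.48e-09, edgeR). Neither gene's groups overlapped in CPM, as was so for 13% of all tested genes. *S100a10*, which with annexin A2 carries the channels to the membrane, rose by 0.27 on the log2 scale (FDR = 0.0409, edgeR), with overlapping groups, and lost its call in 12 of 26 alternatives, 8 of them with a single mouse left out (FDR up to 0.10). *Wnk4*, a kinase of the distal tubule, was lower at -0.55 (FDR = 2.02e-05), *Vdr*, the vitamin D receptor, at -0.50 (FDR = 0.000169), and *Slc9a3r2*, a scaffold protein, at -0.41 (FDR = 0.00175), all by edgeR. *Kl*, which encodes klotho, *Pth1r*, the PTH receptor, and *Umod*, uromodulin, had log2 fold changes of -0.13 (FDR = 0.337), -0.12 (FDR = 0.168) and 0.21 (FDR = 0.0879) and were not called by edgeR. Over 26 alternatives, *Pth1r* was called lower in 2 (FDR down to 0.0189), *Umod* higher in 2 (FDR down to 0.0303) and *Kl* in none.

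Other calcium transporters and buffers were listed as well, and their calls stand beside the 24.4% called among all tested genes. Of 6 tested genes among 12 other pumps and exchangers, *Atp2a2*, the pump of the endoplasmic reticulum, rose (0.30, FDR = 0.0169) and *Atp2a3*, its relative, fell (-0.51, FDR = 0.00788, edgeR). Of 10 tested among 12 other EF-hand proteins, 3 rose: *S100a9* (3.16) and *S100a8* (3.10), which are best known from neutrophils and stood at 0.569 CPM or less in each vehicle-treated mouse, and *S100a11* (0.22). Without vehicle-treated mouse 5, the highest of its group for both, the log2 fold changes were 3.92 for *S100a9* and 4.09 for *S100a8*. Both genes passed the filter on counts through the SK-124 group. Of 8 tested among 12 other calcium-permeable channels, 3 rose, *Trpc1* (0.30), *Piezo1* (0.25) and *Pkd2* (0.22). *Atp2a2*, *S100a11* and the 3 channels were not called by limma on log2(TPM + 1). With a single mouse left out, *S100a11* lost its call in 8 of 12 edgeR fits (FDR up to 0.11), *Pkd2* in 8 (FDR up to 0.0881), *Piezo1* in 5 (FDR up to 0.0782) and *Trpc1* in 3 (FDR up to 0.0574). Neither of the latter 2 lists had a lower gene by edgeR, also at an unadjusted p under 0.05, by DESeq2 or by limma on log2(TPM + 1).

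Among 12 listed genes of calcium-sensing receptor signalling, 10 were tested and 3 were called, against 24.4% of all tested genes. *Ramp3*, which encodes a receptor activity-modifying protein, was at 6.31 to 8.12 CPM with vehicle and at 11 to 14 CPM with SK-124 (log2 fold change 0.85, FDR = 7.53e-07, edgeR). *Plcb3*, a phospholipase C, and *Gna11*, a G protein subunit that couples to the receptor, fell, at -0.55 (FDR = 3.16e-05) and -0.19 (FDR = 0.016, edgeR). The median of the list was 0.05.

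The claudins of the thick ascending limb, which set the passage of calcium between cells, were then compared. Of the 6 listed genes of this route, 3 were called, against 24.4% of all tested genes. *Cldn14*, which encodes a claudin that closes the pore and is controlled by the calcium-sensing receptor, had 6 counts in the 6 vehicle-treated mice together (0 to 2 in each) and 151 with SK-124 (10 to 41 in each). The ratio per library size was 27.4 (95% interval 12.3 to 75.8, exact, for counting error only). In edgeR, which includes the spread between mice, the log2 fold change was 4.61 (95% interval 3.53 to 5.69, FDR = 3.82e-06). The gene passed the filter on counts through the SK-124 group alone, so its call rests on the counts of that group. *Cldn16*, a claudin of the pore, was at 4.31 to 5.72 CPM with vehicle and 5.96 to 7.85 CPM with SK-124 (log2 fold change 0.50, FDR = 0.00088, edgeR), and on log2(TPM + 1) with limma its FDR was 0.0536, among 4.95e-05 to 0.0536 over its 26 alternatives. *Cldn19*, its partner, was at 33.4 to 48.7 and 18.1 to 21.2 CPM (-1.03, FDR = 6.01e-08, edgeR). Per gene length its fall was smaller, from a mean of 16.2 TPM with vehicle to 10.5 TPM with SK-124. On log2(TPM + 1) with limma it was -0.58 (FDR = 0.000913). In CPM the groups did not overlap in these 3 genes, as in 13% of all tested genes. In TPM those of *Cldn16* did overlap, at 4.45 to 5.8 with vehicle and 5.42 to 7.75 with SK-124. *Cldn10* and *Cldn3*, other claudins, and *Slc12a1*, the sodium-potassium-chloride cotransporter, had log2 fold changes of -0.13, -0.11 and 0.16 and were not called by edgeR. By limma on log2(TPM + 1), 2 genes of the list were called lower, against 1 by edgeR. *Gm12927* overlaps *Cldn19* on the opposite strand.

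**Figure D5:**
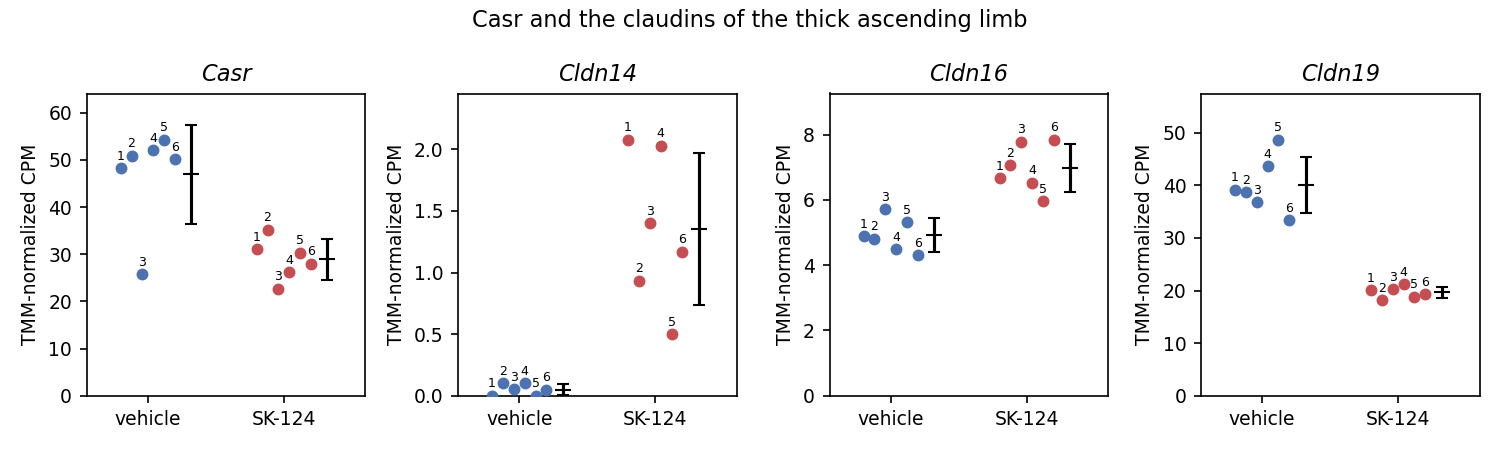
TMM-normalized CPM (vertical axes, linear from 0) of *Casr* and of claudin genes of the thick ascending limb in each numbered mouse, with bars for mean ± SD. *Cldn14* and *Cldn16* are higher and *Cldn19* is lower with SK-124 in all 6 mice, and *Casr* overlaps through vehicle-treated mouse 3 alone.

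Markers of the segments that hold these genes were compared in the same mice, where 24.4% of all tested genes were called. The summed level of 5 markers of the thick ascending limb was 2386 to 3363 CPM with vehicle and 2888 to 3522 CPM with SK-124, with overlap and with its lowest value in vehicle-treated mouse 3, and 1 marker was called higher (*Cldn16*) and 1 lower (*Ppp1r1b*, -0.68). *Umod* and *Slc12a1*, the 2 with most counts, were not called. The 5 markers of the distal convoluted tubule summed to 1085 to 1616 CPM with vehicle, the lowest again in mouse 3, and to 1373 to 1704 CPM with SK-124. *Egf* (log2 fold change 0.10) and *Slc12a3* (0.04) were not called, and *Emx1* fell (-0.47, FDR = 0.00105, edgeR). The 9 markers of connecting tubule and principal cells summed to 498 to 593 CPM and 522 to 645 CPM. There *Scnn1a* was not called (0.05), *Aqp2* rose (0.75, FDR = 0.000852), and *Avpr2*, the vasopressin receptor (-1.17, FDR = 4.96e-07), and *Hsd11b2*, which inactivates glucocorticoids (-0.35, FDR = 9.99e-05, edgeR), fell. In all 3 lists the groups overlapped. The median of the summed level was higher with SK-124 (3357 against 3006, 1585 against 1562 and 573 against 535 CPM). Such sums follow their most abundant genes, such as *Umod*, with a mean of 1995 CPM with vehicle and 2303 CPM with SK-124. Whether the number of cells of these segments differed was not tested.

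Markers of the other kidney cells were counted in the same way, again beside the 24.4% called among all tested genes. Of 5 endothelial markers, 2 fell, *Kdr* (-0.85, FDR = 0.000647) and *Ehd3* (-0.87, FDR = 2.73e-05, edgeR), while *Emcn* and *Flt1*, those with most counts, were not called. Of 4 stromal markers, *Acta2* rose (0.41, FDR = 0.0452) and *Pdgfrb* fell (-0.93, FDR = 5.39e-05, edgeR), while *Col1a1* and *Dcn* were not called. Of 6 markers of intercalated cells, *Foxi1* (0.33, FDR = 0.022) and *Slc26a4* (0.27, FDR = 0.0167) rose and *Slc4a1* fell (-0.59, FDR = 0.000123, edgeR), while *Atp6v0d2* was not called. Of 5 tested immune markers, *Cd79a* (-1.75, FDR = 0.000627) and *Cd68* (-0.60, FDR = 0.00213, edgeR) fell, while *C1qa* was not called. Of 7 proximal tubule markers, *Slc27a2* rose (0.18, FDR = 0.0164), and *Kap* and *Slc34a1* were not called, by edgeR. By limma on log2(TPM + 1), no marker of intercalated cells, stroma or proximal tubule was called higher, and 1 of the proximal tubule was called lower. None of the 5 red blood cell markers, *Hba-a1* and *Hba-a2* included, was called by edgeR or DESeq2, or had an unadjusted p under 0.05 in edgeR. In each of these 6 lists the summed levels of the groups overlapped. Their part in the results on the members was not tested. *Kdr*, *Ehd3*, *Acta2*, *Pdgfrb*, *Foxi1*, *Slc26a4*, *Cd79a* and *Slc27a2*, like *Ppp1r1b*, *Emx1*, *Avpr2* and *Hsd11b2*, were named after their values were seen.

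In the vitamin D axis, 3 of 6 tested genes among 7 were called, against 24.4% of all tested genes. *Cyp27b1*, which makes active vitamin D, rose (2.56), *Cyp24a1*, which removes it, fell (-2.32), and *Vdr* fell. *Cyp24a1* overlapped through SK-124-treated mouse 4 (44.6 CPM, against 41.3 CPM in the lowest vehicle-treated mouse), and without that mouse its log2 fold change was -3.02. *Vdr* did not overlap, at 267 to 351 CPM with vehicle and 181.5 to 240.5 CPM with SK-124.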

How the data were processed

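The authors' tables were used, 1 per mouse, made by STAR 2.7.2b and RSEM 1.3.0 on mm10 per the submitters' processing notes, which also name FastQC and DESeq2. The deposited expected counts are estimated reads per gene without scaling, and the authors' TPM and FPKM are scaled to gene length and library total. The use of strand is not given in the sources used here. Symbols and coordinates are from GENCODE M21 (GRCm38): 54349 of 55401 identifiers matched with their version, and coordinates are given only for these.

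Expected counts were rounded, TMM-scaled, filtered (filterByExpr, 14159 genes) and tested with edgeR 4.0.16 (quasi-likelihood, Benjamini-Hochberg FDR under 0.05, R 4.3.3), with limma 3.58.1 and DESeq2 1.42.0 as alternatives. Members were also compared singly by exact permutation of log2(CPM + 0.5), two-sided (scipy 1.17.1). Counts were also simulated with 200 of 14159 genes changed, whereas 24.4% were called in the data. There edgeR recovered 94% of 2-fold and 95% of 4-fold changes, with 5.5% false calls. Changes under 2-fold, as estimated for each member, were not simulated. No pair of libraries looked duplicated: over 30 pairs, chi-square per degree of freedom was at least 4.41.

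Alternatives were other scalings, filters and tools, TPM, unrounded counts, robust dispersion, a replicate block, each mouse left out and either set of 3 SK-124-treated mice. The members and lists were chosen with earlier results of these data known. Named genes are the members, up to 4 called genes per direction of each list by size of change, *Kl*, *Pth1r*, *Vdr*, *Umod*, *S100a10*, *Cyp27b1* and *Cyp24a1*, the 5 genes most like *Trpv5* and *Calb1*, and the 2 markers with most counts of each list. Results of some listed genes are not reported here.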

Additional observations from a re-analysis of the deposited data

Results flagged for a closer look

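Values in which a single mouse stood far from the others of its group were sought in the members and the named genes of the pathway lists, over 68 groups of 6 mice, of which chance alone would give about 1 in 20. Such a mouse was found 8 times, 4 of them in vehicle-treated mouse 3. In the members these were *Casr* at 25.7 CPM and *S100g* at 211 CPM, both in vehicle-treated mouse 3, and *Trpv5* at 12.3 CPM in SK-124-treated mouse 5. In the lists, vehicle-treated mouse 3 stood apart for *Atp2a2* (129 CPM) and *Ramp3* (8.12 CPM), vehicle-treated mouse 5 for *S100a8* (0.569 CPM) and *S100a9* (0.474 CPM), and SK-124-treated mouse 4 for *Cyp24a1* (44.6 CPM).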

How the results depend on the processing

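*Casr* was called lower in each alternative. Uncalled members near 0 changed sign: *S100g* to -0.01 with library totals, -0.06 with limma on TPM (exact permutation p = 0.799 on log2(TPM + 0.1)) and -0.05 with SK-124-treated mice 1 to 3, *Atp2b1* to -0.01 with limma on TPM (exact p = 0.937), and *Atp2b4* to 0.01 without vehicle-treated mouse 6, 0.03 and 0.02 without SK-124-treated mouse 3 or 4, 0.09 with mice 4 to 6 and 0.00 without both mice numbered 3. Library totals and TPM moved the median of all genes to -0.12 and to between -0.14 and -0.11. The length index covariate and the fit without both mice numbered 3 were chosen after seeing the data.

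*Slc8a1* was not called when the SK-124 group was mice 1 to 3 (-0.24) or mice 4 to 6 (-0.34) alone, and with each mouse left out it ranged from -0.34 to -0.22. *Atp2b1* was called with the length covariate (0.19), where 1 member was higher. Members called lower numbered 1 to 2 with each mouse left out and 1 in both subsets. *Atp2b4* ranged from -0.10 to 0.03 with each mouse left out. All genes called higher numbered 777 with library totals and 500 and 498 with limma at pseudocounts of 1 and 0.1, against 1536, and those called lower 3058 with library totals and 1233 and 1267 in the subsets, against 1917. Listed genes called higher numbered 8 with library totals, 7 with limma at either pseudocount and 9 with mice 1 to 3, and lower 17 with library totals. Of the 5 genes most alike, Spearman's rho kept 1 (*Trpv5*) and 2 (*Calb1*), and values without centring kept 3 and 1. *Trpv6* had too few counts for the fit with at least 10 in every mouse.

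Deviations of same-numbered mice from their group means correlated at -0.131 to 0.217, with the highest value for number 3. These values do not settle whether same-numbered mice shared a factor. With the replicate number as a block, *Casr* was -0.68 (standard error 0.09, against 0.14 without it) and *Slc8a1* -0.31, and no member changed its call.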
